A study of Homo sapiens with 9 samples.

Results

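Collagens, laminins, fibronectin, nidogens and perlecan form the extracellular matrix to which cells attach, and integrins, dimers of an alpha and a beta chain, are the main receptors that bind it. Fibronectin is assembled into fibrils outside the cell, whereas the nidogens and perlecan join the laminin and collagen IV networks of the basement membrane that lies under an epithelium. Fibronectin is widely used as a mesenchymal marker in studies of the epithelial–mesenchymal transition (EMT). The genes described here are those of collagen chains, laminin chains and integrin chains, taken by the form of their symbols, and in addition FN1, NID1, NID2 and HSPG2. Of 86 protein-coding genes with such a symbol in the GRCh38.p14 gene table, 5 have a probe set named here, out of 14884 genes tested. These are FN1 (fibronectin), HSPG2 (perlecan), NID1 and NID2 (the nidogens) and COL26A1, 1 of 44 collagen genes. None of the 12 laminin genes and none of the 26 integrin genes, ITGB4 among them, has a probe set named here, and they were not analysed here. The set is therefore called matrix genes below, all of them ligands, and no comparison of ligand with integrin chains could be made.

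HCT116 cells, a human colorectal carcinoma line of epithelial origin, carried either a scrambled shRNA (shCTRL, 4 arrays) or an shRNA against H2AFX, the gene of the histone variant H2A.X (shH2A.X, 5 arrays). Both shRNAs were delivered by lentivirus, cells were kept for 72 h in medium with 10% serum, and 100 ng of total RNA was labelled for each Affymetrix Human Gene 2.0 ST array. The methods give 5 arrays for either group, the labels 4 for shCTRL, and no further shCTRL array was part of this comparison. The methods describe puromycin selection to establish stable cells, and a single hairpin against H2A.X. The arrays are called independent replicates in the paper, without saying whether each came from its own infection. The p-values therefore cover the spread among these samples only, and part of it may be technical. Array medians lay between 4.54 and 4.577 on the log2 scale, correlations across genes were 0.9938 to 0.9953 within a group and 0.9851 to 0.986 between groups. The gene of H2A.X has no probe set named here, so the knockdown itself was not checked on these arrays. The paper reports less H2A.X protein in shH2A.X cells by immunoblot. All 9 measured epithelial markers had a group mean above the lowest array median in at least 1 group. So had all but 4115 of the 14884 genes tested, some markers of other cell types among them. The means in shCTRL ran from 4.71 for KRT20 and 4.85 for VIL1, close to the array medians, to 10.88 for EPCAM and 11.25 for KRT18.

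FN1 and HSPG2 were both higher in shH2A.X than in shCTRL cells, while NID1, NID2 and COL26A1 did not pass the test. FN1 was 1.96-fold and HSPG2 1.83-fold higher. Of the 5 matrix genes, 2 rose and 0 fell at an adjusted p under 0.05 (limma, Benjamini-Hochberg over all genes tested), where 12.2% of all genes tested rose and 10.7% fell. The counts were also 2 and 0 when limma's p was left unadjusted (under 0.05), and in the methods' t-test (two-tailed, equal variances), whether its p was taken as it stands or adjusted. Further counts of the methods' t-test are those after adjustment. Both rises also exceeded 1.5-fold, a size passed together with the adjusted p by 2.36% of all genes upward and by 1.78% downward. The median log2 fold change was 0.13 over the matrix genes and 0.00 over all genes. With 5 genes this median is the value of NID2, a dim gene that did not pass, and it shows no shift of the set. The 5 genes lie on different chromosomes except for NID1 and HSPG2, which are both on chromosome 1, far apart from each other. Each of the 5 was measured by a single probe set.

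The 300-base promoter windows of the pair that rose are shown so that the start regions of both genes can be compared. They run from 250 bases before to 50 bases after the start of each gene (RefSeq, GRCh38.p14), on the minus strand at chr2:215436019-215436318 for FN1 and at chr1:21937261-21937560 for HSPG2. Capitals mark the cAMP response element TGACGTCA and the GC box GGGCGG.
FN1: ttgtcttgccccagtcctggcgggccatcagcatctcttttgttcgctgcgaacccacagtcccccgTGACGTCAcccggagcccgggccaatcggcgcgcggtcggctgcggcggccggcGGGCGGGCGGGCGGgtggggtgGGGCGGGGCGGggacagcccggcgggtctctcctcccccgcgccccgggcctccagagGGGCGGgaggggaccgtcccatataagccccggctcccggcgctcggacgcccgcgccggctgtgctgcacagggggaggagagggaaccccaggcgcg
HSPG2: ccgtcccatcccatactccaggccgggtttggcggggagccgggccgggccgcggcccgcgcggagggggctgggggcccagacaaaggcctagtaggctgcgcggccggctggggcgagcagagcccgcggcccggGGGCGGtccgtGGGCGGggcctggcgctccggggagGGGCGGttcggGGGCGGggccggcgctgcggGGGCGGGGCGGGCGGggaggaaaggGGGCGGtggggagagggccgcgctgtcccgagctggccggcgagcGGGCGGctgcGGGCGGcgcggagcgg
Both strands were searched for these motifs, for the E-box CAGGTG, to which Slug and ZEB1 bind, and for the AP-1 motif TGANTCA. FN1 held 1 cAMP response element, starting 183 bases before the gene's start, and none of the other matrix genes held one, against 1.85% of 35116 promoter windows. GC boxes, some overlapping each other, numbered 6 in FN1, 10 in HSPG2, 4 in NID2 and 1 in NID1. COL26A1 had none, and 45.0% of all windows held at least 1. The E-box letters were absent from all 5 windows, against a share of 20.6%, and so was the AP-1 motif, against 7.71%. A match describes letters in a window, not a binding site.

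FN1 (gene identifier 2335) encodes fibronectin, a fibril-forming glycoprotein bound by integrins through its RGD sequence. The gene spans 215360865 to 215436068 on chromosome 2. Its log2 values in shCTRL replicates 1 to 4 were 6.66, 6.61, 6.61 and 6.77. In shH2A.X replicates 1 to 5 they were 7.50, 7.66, 7.77, 7.54 and 7.68. Every shH2A.X array lay above every shCTRL array, as for 12.1% of all genes tested, and a gap of 0.73 separated the lowest shH2A.X from the highest shCTRL array. The mean was 6.66 ± 0.07 (SD, n = 4) for shCTRL and 7.63 ± 0.11 (SD, n = 5) for shH2A.X arrays. The log2 fold change was 0.97 (SE 0.07, 95% interval 0.81 to 1.12, adjusted p = 2.03e-06 from limma), which is a fold change between 1.76 and 2.18. Among the 126 ways to divide the arrays into 4 and 5, no other gave as large a difference (exact permutation test, two-sided, p = 0.00794, which is the smallest this design allows). Of all genes tested, 125 (0.84%) had a larger rise. All 9 FN1 values were above the median of every array.

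HSPG2 (gene identifier 3339) encodes perlecan, a large heparan sulfate proteoglycan of basement membranes that binds laminin, nidogens and growth factors. The gene spans 21822244 to 21937310 on chromosome 1. Its log2 values in shCTRL replicates 1 to 4 were 6.73, 6.76, 6.78 and 6.78. In shH2A.X replicates 1 to 5 they were 7.60, 7.61, 7.74, 7.55 and 7.70. The arrays fell into separate ranges, 0.77 apart, and the shCTRL arrays were nearly identical to one another. The mean was 6.76 ± 0.02 (SD, n = 4) for shCTRL and 7.64 ± 0.08 (SD, n = 5) for shH2A.X arrays. The log2 fold change was 0.88 (SE 0.06, 95% interval 0.75 to 1.00, adjusted p = 9.12e-07 from limma), a fold change between 1.68 and 2.00. The exact permutation test gave p = 0.00794 here too. A larger rise was seen for 150 genes (1.01%). As for FN1, no array had a value below the array medians.

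**Figure D1:**
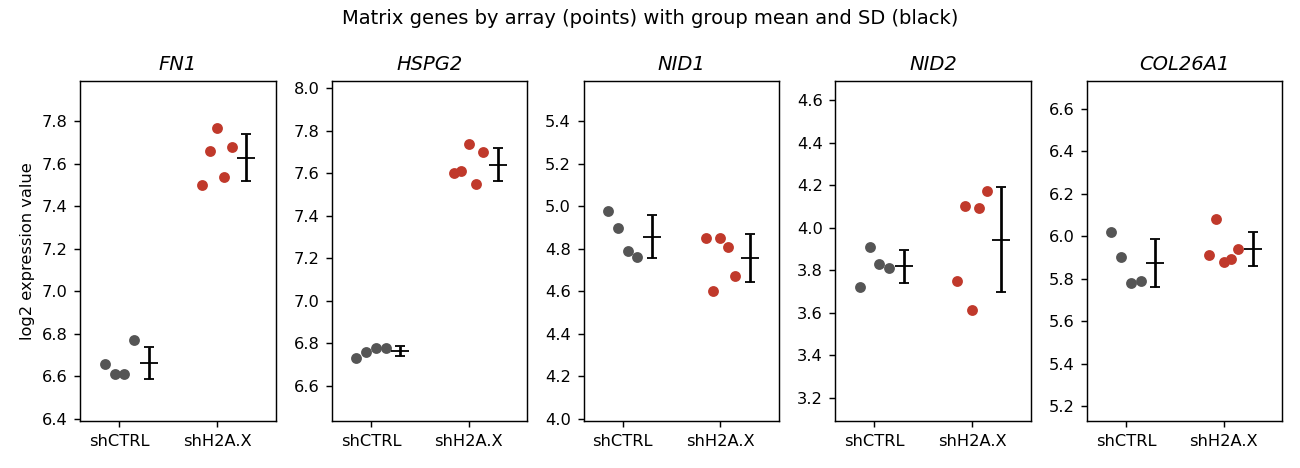
Log2 expression value (vertical axis, 1.6 units high in each panel) of the 5 matrix genes in the 4 shCTRL (grey) and 5 shH2A.X (red) arrays, with group means and SD in black. The groups are apart for FN1 and HSPG2 and overlap for NID1, NID2 and COL26A1, and the shH2A.X arrays of NID2 spread from 3.61 to 4.17.

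The nidogens, which bridge laminin and collagen IV, gave no called difference. NID1 (gene identifier 4811, chromosome 1, 235975830 to 236065090) had log2 values of 4.98, 4.90, 4.79 and 4.76 in shCTRL replicates 1 to 4. In shH2A.X replicates 1 to 5 the values were 4.85, 4.60, 4.85, 4.81 and 4.67. The groups overlapped, and the log2 fold change was −0.10 (SE 0.08, 95% interval −0.27 to 0.06, adjusted p = 0.397 from limma). The interval reaches from 0.83 to 1.04 times the shCTRL level and so does not contain a rise of the size of FN1 or HSPG2. NID1 lay only slightly above the array medians in both groups. Since no detection calls are given, it is unknown whether a change in it would show in full.

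NID2 (gene identifier 22795, chromosome 14, 52004809 to 52069059) had log2 values of 3.72, 3.91, 3.83 and 3.81 in shCTRL replicates 1 to 4. In shH2A.X replicates 1 to 5 the values were 3.75, 4.10, 3.61, 4.09 and 4.17. The shH2A.X arrays were split, with replicates 2, 4 and 5 above and replicates 1 and 3 within or below the shCTRL range, and their SD was 0.25 against 0.08 in shCTRL cells. The log2 fold change was 0.13 (SE 0.11, 95% interval −0.12 to 0.38, adjusted p = 0.488 from limma). All 9 values lay below the median of all values in the table, 4.56. The table holds no detection calls, so it is unknown whether NID2 was above background, and a change in it may not have been measurable.

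COL26A1 (gene identifier 136227, chromosome 7, 101362388 to 101559024), the single collagen gene with a probe set named here, encodes a short collagen with an EMI domain that is known from the testis and ovary of the mouse. Its log2 values were 6.02, 5.90, 5.78 and 5.79 in shCTRL replicates 1 to 4, and 5.91, 6.08, 5.88, 5.89 and 5.94 in shH2A.X replicates 1 to 5. The groups overlapped over most of their range. The log2 fold change was 0.07 (SE 0.07, 95% interval −0.09 to 0.22, adjusted p = 0.57 from limma), between 0.942 and 1.17 times the shCTRL level. Nothing follows from it for fibrillar or basement membrane collagens, whose chains were not analysed here.

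**Figure D2:**
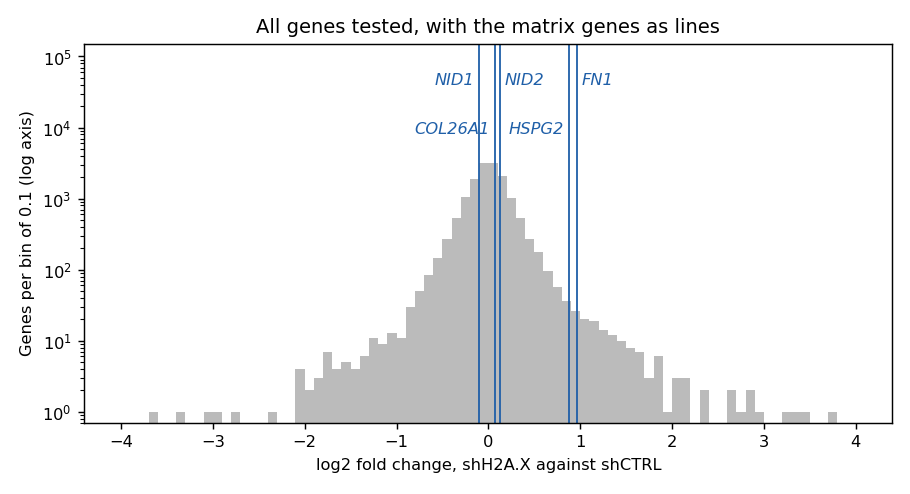
Histogram of the log2 fold changes of all 14884 genes (horizontal axis) with the number of genes per bin on a log axis. Lines mark the matrix genes, of which NID1, COL26A1 and NID2 lie in the centre and HSPG2 (0.88) and FN1 (0.97) in the upper tail, where 1.01% and 0.84% of genes had a larger rise.

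The enzymes that modify and crosslink collagen and the proteins that link matrix to cells were described beside the matrix genes. Their lists were written from textbook knowledge, but with earlier results of these data known. Of 69 such genes with a named probe set, out of 97 listed, 27 rose, 2 fell and 40 did not pass the limma test, with a median log2 fold change of 0.15. These counts are 39.1% higher and 2.9% lower, where 12.2% and 10.7% of all genes tested rose and fell. The lists hold few dim genes: 4 of 69 had both group means below the lowest array median, against 4115 of all 14884 genes. With dim probe sets removed, 30 of 63 listed genes rose and 3 fell, against 1948 and 1728 of all 10563 genes left. At an unadjusted p under 0.05 from limma the shares over all genes were 17.3% higher and 16.1% lower, against which the unadjusted counts of each list are to be read. Of 18 collagen processing genes, 6 (33.3%) rose and 0 fell (8 and 1 at an unadjusted p under 0.05, and 6 and 0 in the methods' t-test). LOXL2 and LOXL4, lysyl oxidases that crosslink collagen and elastin, rose by 1.31 (SE 0.07) and 0.97 (SE 0.12) on the log2 scale. BMP1, the proteinase that removes the C-propeptide of procollagens, rose by 0.60 (SE 0.07). LOX, named after its value was seen, had no called difference (0.02 on the log2 scale with SE 0.12, and an adjusted p of 0.92 by limma).

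In place of integrins, 12 other receptors for collagen, laminin or fibronectin, or partners of such receptors, could be set beside FN1 and HSPG2. Of these, 5 (41.7%, against 12.2% of all genes) rose and 0 fell (6 and 1 at an unadjusted p under 0.05, and 5 and 0 in the methods' t-test). BCAM, a laminin receptor of the immunoglobulin family, had the largest of these rises, 0.60 (SE 0.06) against 0.97 for FN1 and 0.88 for HSPG2. SDC4 and SDC1, syndecans that carry heparan sulfate and bind fibronectin, rose by 0.37 (SE 0.05) and 0.25 (SE 0.06). The remaining rises, named after their values were seen, were those of DDR1, a collagen-binding receptor tyrosine kinase, by 0.23 (SE 0.05), and of SDC3 by 0.23 (SE 0.06).

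Of 34 adaptors and kinases of focal adhesions, 15 (44.1%, against 12.2% of all genes) rose and 1 fell (16 and 3 at an unadjusted p under 0.05, and 14 and 2 in the methods' t-test). TNS3, a tensin that links integrin tails to actin, rose by 1.68 (SE 0.08), more than FN1, and TGFB1I1, a relative of paxillin, rose by 1.25 (SE 0.09). FERMT1, a kindlin that activates integrins, rose by 0.67 (SE 0.06). PTK2B, a focal adhesion kinase relative, fell by 0.31 (SE 0.08, adjusted p = 0.0167 from limma), a call that was lost in 4 of 18 alternatives. These were the fit with a replicate block (−0.27, adjusted p = 0.0695 from limma), the test of all probe sets (0.0502), and the fits without shCTRL replicate 1 (0.0508) or shCTRL replicate 2 (0.0552). Of 7 genes of hemidesmosomes and epidermal anchorage, 2 (28.6%, against 12.2% of all genes) rose and 1 (14.3%, against 10.7%) fell. At an unadjusted p under 0.05 from limma the counts were 3 and 2, and in the methods' t-test 2 and 1. The rises were those of FERMT1, which is in both lists, and PLEC, the cytoskeletal linker plectin (0.60, SE 0.09). EXPH5, an effector of vesicle transport mutated in a skin fragility disorder, fell by 0.47 (SE 0.08).

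**Figure D3:**
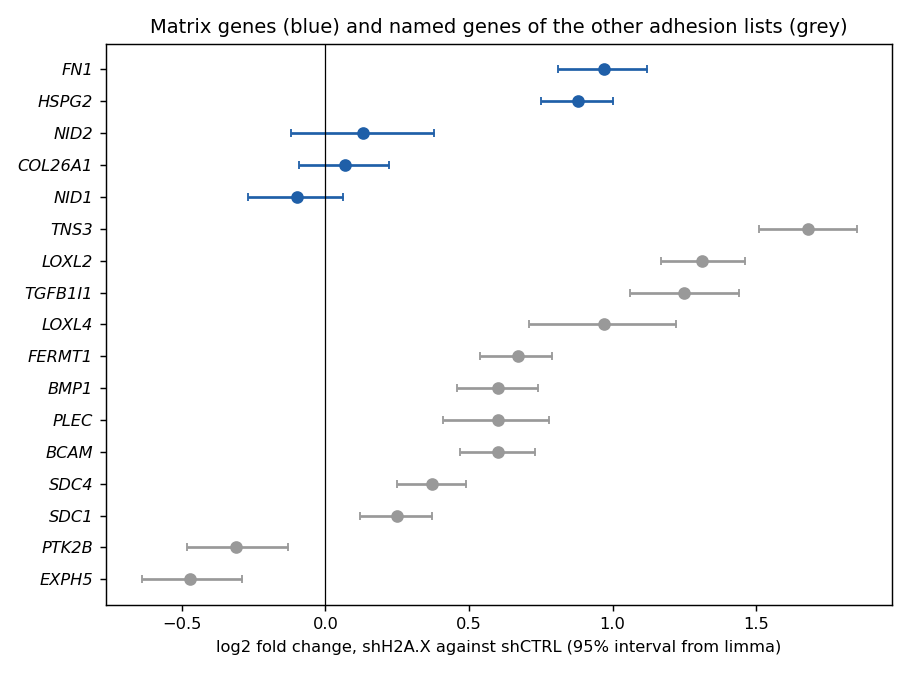
Log2 fold change of shH2A.X against shCTRL cells with its 95% interval from limma (horizontal axis) for the matrix genes (blue) and the named genes of the other adhesion lists (grey). The intervals of FN1 and HSPG2 lie above 0 and those of NID1, NID2 and COL26A1 include 0, while TNS3 has the highest value drawn.

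Fibronectin and perlecan are also made by fibroblasts and endothelial cells, so markers of cell types were read beside FN1 and HSPG2. Their counts are to be read against all genes tested, of which 12.2% rose and 10.7% fell. At an unadjusted p under 0.05 from limma these shares were 17.3% and 16.1%. Of the 9 measured epithelial markers, KRT20 (1.00, SE 0.12) and KRT19 (0.64, SE 0.05) rose and ESRP1 (−1.33, SE 0.09) and EPCAM (−0.67, SE 0.05) fell, and the summed linear level of the list was 6321 to 6511 array units in shCTRL and 5693 to 6136 in shH2A.X arrays. Among 6 measured fibroblast markers there was 1 rise, of S100A4 (log2 fold change 0.89, SE 0.09), and no fall. The rise is 16.7% of the list, near the share of all genes. At an unadjusted p under 0.05 from limma the counts were 1 and 1, and in the methods' t-test 1 and 1. DCN and LUM lay below the array medians in both groups, while THY1, PDPN, TAGLN and S100A4 lay above them in both. The summed level of the fibroblast list was 213 to 240 in shCTRL and 279 to 333 in shH2A.X arrays. In this list only S100A4 had a positive log2 fold change, from a mean of 6.72 to 7.61. The log2 fold changes of DCN (−0.17), LUM (−0.16), TAGLN (−0.14), THY1 (−0.09) and PDPN (−0.02) were below 0. The median over the list was −0.12, so the larger sum does not stand for the list as a whole. Of 3 measured leukocyte markers, LYZ and CD68 rose, by 2.67 (SE 0.12) and 0.90 (SE 0.07). CD14 lay below the array medians in both groups, LYZ in shCTRL arrays alone (4.04 against 6.71), and CD68 in neither. Their summed level was 117 to 135 in shCTRL and 284 to 330 in shH2A.X arrays. None of 4 endothelial markers passed the limma test (2 rose and 0 fell at an unadjusted p under 0.05, and 0 and 0 in the methods' t-test), and the sums were 89 to 109 and 102 to 115. VWF and PECAM1 lay below the array medians in both groups, CLDN5 lay above them in both (5.80 and 5.93), and KDR lay below them in shCTRL (4.40) and above them in shH2A.X arrays (4.71). The part of these markers in the rise of FN1 and HSPG2 was not tested.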

How the data were processed

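RNA of 4 shCTRL and 5 shH2A.X samples of HCT116 cells was profiled on 1 array each. Per the methods, the authors ran Affymetrix Expression Console to obtain CHP files and used Partek 6.6 for normalization and differential expression. The test run in Partek is not stated. The deposited log2 values of 53617 probe sets are normalized between arrays, and for the background correction, the normalization method and the program behind the table the sources used here give nothing. A single gene symbol is given by the platform annotation for 16098 probe sets, all matched by gene identifier to the GRCh38.p14 table, and the other 37519 are unnamed here. Where a gene had several probe sets the one with the highest mean stood for it, which gave 14884 genes. Groups and replicate numbers came from the sample titles.

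Symbols that fit a chain name in full were taken, which leaves out 7 others with the same prefix, antisense RNAs and integrin-binding proteins. The genes and lists were chosen with earlier results of these data known. Genes were named by a fixed rule: all measured matrix genes, and up to 3 rises and 3 falls of each other list by size. shH2A.X and shCTRL arrays were compared with limma 3.58.1 in R 4.3.3 with dim probe sets kept, and rises and falls are those with an adjusted p under 0.05. Precision is limited by the number of arrays; the median SD within a group was 0.1183 on the log2 scale. limma was tested on simulated data. Alternatives were quantile normalization, median centring, removal of dim probe sets, the methods' two-tailed t-test (equal variances assumed, and its use for the arrays and any adjustment not stated, here adjusted by Benjamini-Hochberg unless said otherwise), limma with array weights, with a trended robust prior or with a replicate block, averaging the probe sets of a gene, testing all probe sets, a fold threshold and leaving out each array. Figures were drawn with matplotlib 3.10.9.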

Additional observations from a re-analysis of the deposited data

Results flagged for a closer look

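Among 34 groups of arrays checked, of the matrix genes and the named genes of the other lists, 3 held an array far from the rest, where about 1.7 would be seen by chance at 5% each. COL26A1 was 6.08 in shH2A.X replicate 2, against 5.88 to 5.94 in the rest of that group. LOXL4 was 6.24 in 1 shCTRL array against 5.76 to 5.83, still below every shH2A.X array. FERMT1 was 9.50 in 1 shH2A.X array against 9.61 to 9.63, still above every shCTRL array. No array of FN1, HSPG2, NID1 or NID2 stood apart in this way.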

How the results depend on the processing

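The calls of FN1, HSPG2, NID1 and COL26A1 kept their direction and their side of the threshold in all 18 alternatives, and that of NID2 in the 17 that could be run, since the filter on dim probe sets removed it. FN1 ranged from 0.93 to 1.00 in log2 fold change (adjusted p 3.86e-09 to 0.000648) and HSPG2 from 0.85 to 0.90 (2.8e-09 to 0.000359). Values of the genes that were not called were less steady. Leaving out 1 array moved NID2 from 0.13 to between 0.07 (without shH2A.X replicate 5) and 0.22 (without shH2A.X replicate 3), NID1 from −0.10 to between −0.14 (without shCTRL replicate 4) and −0.06 (without shCTRL replicate 1 or shH2A.X replicate 2), and COL26A1 from 0.07 to between 0.03 (without shH2A.X replicate 2) and 0.12 (without shCTRL replicate 1). The counts of matrix genes, all ligands, were the same throughout. Counts of receptor chains could not be had, since no integrin has a probe set named here. Asking also for a 1.5-fold change left 8 genes higher and 0 lower in the other adhesion lists. By this rule 2.36% of all genes tested were higher and 1.78% lower. The lower genes of these lists numbered 1 when all probe sets were tested and 1 to 4 without 1 array, namely 1 without shCTRL replicate 2 and 4 without shH2A.X replicate 3. The cause was not tested. Arrays with the same replicate number did not deviate together (correlations −0.0855 to 0.024 over 4 pairs), so the numbers were not taken to pair the arrays. With a replicate block, 1 gene of those lists was lower, 1270 of all genes rose and 1074 fell, and FN1 (0.96, adjusted p = 0.000648) and HSPG2 (0.86, adjusted p = 0.000359) were still called. Without detection calls the background limit is unknown, which bears most on NID2 and NID1.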

Other observations

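Some antisense RNAs have a named probe set at loci of chains that have none named here. They were read as values, chosen after their values were seen. ITGB2-AS1 at the locus of an integrin beta chain was 4.19 ± 0.22 (SD, n = 4) in shCTRL and 4.55 ± 0.06 (SD, n = 5) in shH2A.X arrays, 0.36 apart on the log2 scale (SE 0.09; limma, adjusted p = 0.0163) and close to or below the array medians. COL4A2-AS1 (0.06, SE 0.06), COL18A1-AS1 (−0.06, SE 0.10) and COL18A1-AS2 (−0.09, SE 0.10) had no called difference. These values say nothing of the chains themselves.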
